A study of Mus musculus with 19 samples.

Results

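A set of 9 genes that mark GABAergic interneurons was followed in pooled dendrites of cultured mouse hippocampal neurons. The genes were Gad1, Gad2, Slc32a1, Pvalb, Calb2, Lhx6, Dlx1, Dlx2 and Reln, taken by name from a list and not by their values. They were 9 of 18193 genes on the array and were read by 16 of 45037 probe sets, with 4 probe sets for Slc32a1, 2 each for Gad1, Gad2, Lhx6 and Reln, and 1 each for Pvalb, Calb2, Dlx1 and Dlx2. All 9 were measured on all 19 arrays. Dendrites were cut from neurons of Balb/c and C57BL/6 mice, both inbred, taken as E18 embryos and kept for 14 days in primary culture, and each array held 1 pool. The Balb/c pools held 100 dendrites (2 arrays), 200 (1 array) or 400 (2 arrays), and the C57BL/6 pools held 100 (4 arrays), 200 (5 arrays) or 400 (5 arrays). No group carried a mutation or a treatment. The neurons were labelled pyramidal. The study states that axons could not be told from dendrites by shape and that a small share of the RNA was axonal. It also allows that RNA of the soma may have contaminated the pools. The pools were called biological replicates, but nothing states that they stemmed from different cultures or animals, and p-values therefore describe only how pools varied.

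Interneurons are the inhibitory neurons of the hippocampus and a minority of its cells. They make GABA from glutamate with the 2 glutamate decarboxylases encoded by Gad1 and Gad2, and load it into synaptic vesicles with the transporter encoded by Slc32a1. Their identity is set before birth in the ganglionic eminences, where the homeobox factors Dlx1 and Dlx2 act upstream of Lhx6, a LIM homeobox factor of the cells that become Pvalb and Sst interneurons. Pvalb (parvalbumin) and Calb2 (calretinin) are calcium-binding proteins of distinct subtypes, and Reln (reelin) is a secreted glycoprotein of Cajal-Retzius cells in the embryo and of some interneurons later.

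Each value is the log2 RMA signal of a probe set, and differences are Balb/c minus C57BL/6 on that scale. An array's name gives its strain, its number of dendrites and its replicate. Probe sets bind with different strength, so levels are compared between arrays and not between probe sets, and the array median and the olfactory receptor probe sets serve only to show where a value is dim. Array medians ran from 6.77 to 6.95 in Balb/c and from 6.62 to 6.86 in C57BL/6, and the median of the strain differences was 0.22 over genes and 0.25 over probe sets. 3 arrays were taken as lying between the strains over all genes. C57BL/6 200-1 correlated on average at 0.78 with Balb/c and 0.76 with its own strain. C57BL/6 400-1 correlated at 0.72 with Balb/c and 0.78 with its own strain, and Balb/c 200-1 at 0.68 with its own strain and 0.78 with C57BL/6. Balb/c 400-2, at 0.77 with its own strain and 0.72 with C57BL/6, came near C57BL/6 400-1 in this but was not counted among the 3. The median of 43 olfactory receptor probe sets, genes not known for a role in dendrites, was 6.997 to 7.37 in Balb/c and 5.98 to 7.06 in C57BL/6, with the highest C57BL/6 values, 7.06 and 6.997, in 200-1 and 400-1. The 3′ minus 5′ difference of the Actb control probe sets, which grows as amplified fragments get shorter, was -0.69 to 2.27 in Balb/c and 1.17 to 5.56 in C57BL/6. The number of decimals in the deposited columns also differed, with 9 long-format columns (5 Balb/c and 4 C57BL/6) and 10 short-format columns (all C57BL/6), and this was treated as a technical batch. The 3 arrays between the strains were all long-format, with C57BL/6 200-1 and 400-1 among the 4 long-format C57BL/6 arrays. Fits by number format therefore rest partly on C57BL/6 arrays near Balb/c. Leaving the 3 arrays out ties strain more closely to format.

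The comparison of the strains asks whether inhibitory marker RNA in the pools depended on the mouse strain. By gene value, the median of a gene's probe sets, Gad1 and Dlx1 were lower in Balb/c dendrites, Pvalb was higher, and the other 6 genes did not pass the test (limma over all 18193 genes, Benjamini-Hochberg adjusted p of 0.05). Over all genes, 32.5% passed, 11.4% lower and 21.1% higher in Balb/c, so that 3 of 9 is near the share of all genes. By probe set, 7 of 16 passed, 3 lower (Gad1 1416561_at, Slc32a1 1422756_at, Dlx1 1449470_at) and 4 higher (Slc32a1 1447573_at and 1456457_at, Pvalb 1417653_at, Reln 1458020_at), against 32.9% of all probe sets, 11.6% lower and 21.3% higher. With the number format as a block, 1 of 16 passed (Gad1 1416561_at) against 1.87% of all probe sets, and without the 3 arrays between the strains 10 of 16 passed against 43.6%. These 3 arrays were picked for their likeness to the other strain, so leaving them out widens strain differences by choice. Passing in that fit is therefore not read as support. In bulk pools, fewer dendrites of a cell type and less RNA per dendrite cannot be told apart. The part of the olfactory receptor level and of the Actb 3′ minus 5′ difference in the strain differences was not tested.

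**Figure D1:**
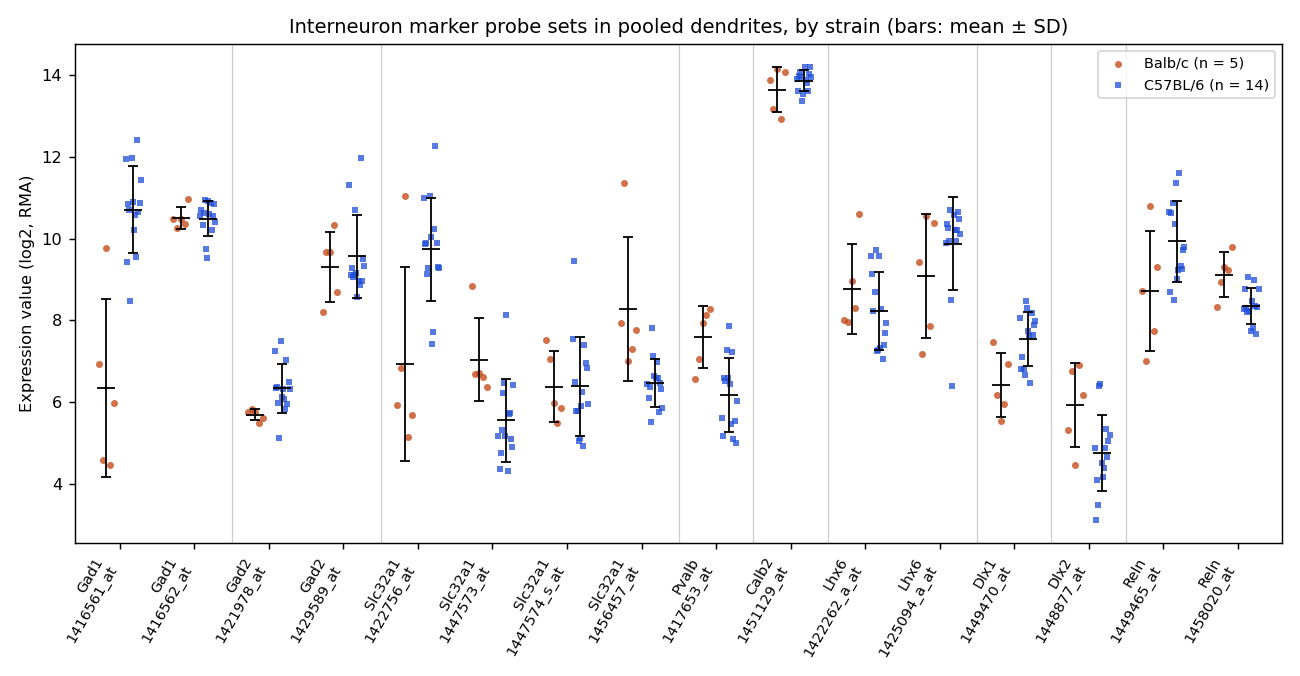
Expression values (log2, RMA, vertical axis) of the 16 probe sets of the 9 interneuron markers in Balb/c (5 arrays, left of each pair) and C57BL/6 (14 arrays, right), 1 point per array, with bars at the mean ± SD. Gad1 1416561_at and Slc32a1 1422756_at are low in 4 Balb/c arrays and high in Balb/c 200-1, while the strains overlap in Gad1 1416562_at and Calb2.

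Gad1, whose product makes most of the GABA of the cell, gave 2 different answers on its 2 probe sets. Gad1 1416561_at had values of 6.93 and 4.58 in the Balb/c pools of 100 dendrites, 9.76 in Balb/c 200-1, and 4.46 and 5.99 in the Balb/c pools of 400, against a lowest value of 8.48 (200-1), a median of 10.77 and a highest of 12.41 (400-2) in the 14 C57BL/6 arrays. Of the 5 Balb/c arrays, 4 lay below every C57BL/6 array and the fifth, Balb/c 200-1, lay inside the C57BL/6 range. The mean was 6.35 ± 2.17 in Balb/c (SD, n = 5) and 10.71 ± 1.07 in C57BL/6 (SD, n = 14), a difference of -4.36 ± 0.66 (SE, limma adjusted p = 0.00015), or -4.62 relative to the median probe set. Without the 3 arrays between the strains, which were picked for their likeness to the other strain, the difference was -5.50 ± 0.48 (limma adjusted p = 9.0e-08). With the number format as a block it was -3.50 ± 0.81 (adjusted p = 0.033), and within the 9 long-format arrays it was -3.50 ± 1.02, with an adjusted p of 0.35 in a fit in which 0 of 45037 probe sets passed.

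The other Gad1 probe set, 1416562_at, did not pass. It had 10.47, 10.25, 10.47, 10.35 and 10.97 in Balb/c (100-1, 100-2, 200-1, 400-1 and 400-2), against 9.53 to 10.95 with a median of 10.58 in C57BL/6, and 4 of the 5 Balb/c arrays lay inside the C57BL/6 range. The means were 10.50 ± 0.28 in Balb/c and 10.49 ± 0.42 in C57BL/6, and the difference was 0.013 ± 0.25 (SE, limma adjusted p = 0.97). The gene value of Gad1, which averages both probe sets, was 8.42 ± 1.12 in Balb/c and 10.60 ± 0.44 in C57BL/6, a difference of -2.17 ± 0.33 (adjusted p = 0.00018) in which 1416561_at carried -4.36 and 1416562_at 0.013. In the 14 C57BL/6 arrays the 2 probe sets of Gad1 had a Pearson r of -0.60 with each other (permutation p = 0.025, 0.20 adjusted over 120 pairs of probe sets), a Spearman rho of -0.78 (permutation p = 0.0017, 0.039 adjusted) and an r of -0.53 without the 2 arrays farthest from the median.

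Gad2, the second decarboxylase, known for supplying GABA at synapses, did not pass in either probe set. Gad2 1429589_at had 8.20 and 9.67 in the Balb/c pools of 100, 9.66 in the pool of 200, and 10.34 and 8.70 in the pools of 400, against 8.58 to 11.96 with a median of 9.13 in C57BL/6. The means of 9.31 ± 0.85 in Balb/c and 9.56 ± 1.01 in C57BL/6 differed by -0.25 ± 0.47 (adjusted p = 0.71). Gad2 1421978_at was 5.70 ± 0.14 in Balb/c and 6.34 ± 0.60 in C57BL/6, a difference of -0.64 ± 0.30 (adjusted p = 0.097) that passed without the 3 arrays between the strains (-0.81, adjusted p = 0.028). All 5 Balb/c values of that probe set lay below the array median, as did 11 of 14 C57BL/6 values, so it was read at the dim end of the array.

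Slc32a1, the vesicular GABA transporter gene, split by probe set even in sign. Slc32a1 1422756_at had 5.93, 6.85, 11.04, 5.16 and 5.69 in Balb/c (100-1, 100-2, 200-1, 400-1 and 400-2), against 7.42 (200-4) to 12.26 (400-2) with a median of 9.87 in C57BL/6. As for Gad1 1416561_at, 4 of 5 Balb/c arrays lay below every C57BL/6 array and Balb/c 200-1 lay inside their range. The difference was -2.81 ± 0.74 (SE, limma adjusted p = 0.0069), -3.83 without the 3 arrays between the strains (adjusted p = 0.00011) and -3.16 ± 0.96 in the fit blocked on number format, in which it did not pass (adjusted p = 0.076). Slc32a1 1447573_at and 1456457_at moved the other way, by 1.48 ± 0.49 (adjusted p = 0.024) and 1.80 ± 0.48 (adjusted p = 0.0076). The fourth, 1447574_s_at, was 6.38 ± 0.86 in Balb/c and 6.40 ± 1.21 in C57BL/6 (adjusted p = 0.99).

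The 2 probe sets of Slc32a1 that rose each had 1 Balb/c array far above the other 4. Slc32a1 1447573_at was above its array median in 1 Balb/c and 1 C57BL/6 array, and its 8.85 in Balb/c 100-1 stood apart from 6.37 to 6.71 in the other 4 Balb/c arrays. Slc32a1 1456457_at was 11.36 in Balb/c 100-2 and 7.02 to 7.93 in the other Balb/c arrays, against 5.53 to 7.81 in C57BL/6, and it was above the array median in 5 Balb/c and 3 C57BL/6 arrays. Neither passed with the number format as a block (adjusted p of 0.14 and 0.16), and 1447573_at did not pass without Balb/c 100-1 (1.03, adjusted p = 0.11). The gene value of Slc32a1, a median over probe sets of opposite sign, differed by 0.14 ± 0.30 (6.74 ± 0.69 in Balb/c and 6.61 ± 0.53 in C57BL/6, adjusted p = 0.75), and it turned negative when the array median was subtracted (-0.039).

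**Figure D2:**
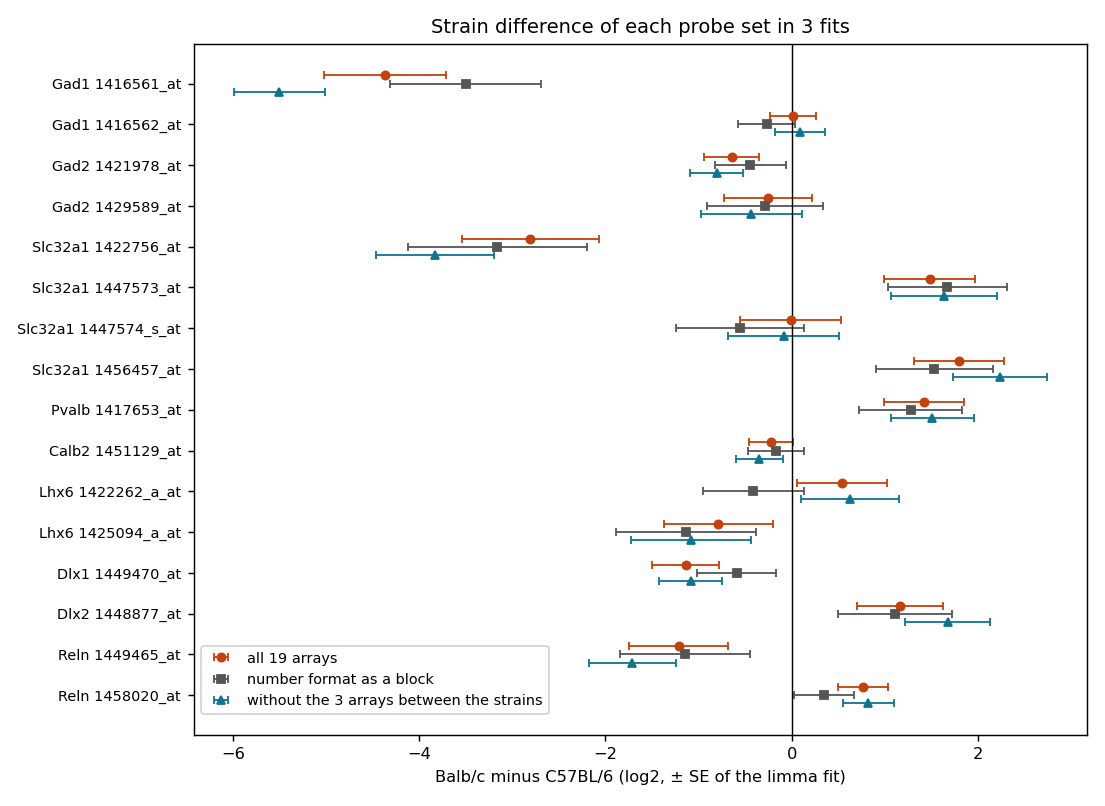
Strain difference of each probe set (Balb/c minus C57BL/6, log2, horizontal axis, ± SE of the limma fit) over all 19 arrays, blocked on number format, and without the 3 arrays between the strains. Gad1 1416561_at lies far below 0 in all 3 fits (-4.36, -3.50 and -5.50), and Lhx6 1422262_a_at changes sign with the block (0.54 and -0.41).

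Of the transcription factors, Dlx1 was lower in Balb/c and Lhx6 and Dlx2 did not pass. Dlx1 1449470_at had 7.48, 6.17, 5.54, 5.96 and 6.94 in Balb/c (100-1, 100-2, 200-1, 400-1 and 400-2), against 6.48 (400-1) to 8.47 (200-2) with a median of 7.70 in C57BL/6. The strains overlapped, with 3 Balb/c arrays below every C57BL/6 array, and the difference was -1.14 ± 0.34 (SE, limma adjusted p = 0.015 as a gene value), or -1.36 relative to the median gene. It was -0.59 with the number format as a block (adjusted p = 0.42), and did not pass without Balb/c 200-1 (-0.92, adjusted p = 0.0505) or without Balb/c 400-1 (-1.02, adjusted p = 0.054).

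Dlx2, which lies next to Dlx1 in the genome, had the opposite sign. Dlx2 1448877_at had 5.32 and 6.77 in the Balb/c pools of 100, 4.46 in the pool of 200, and 6.91 and 6.19 in the pools of 400, against 3.13 to 6.45 with a median of 4.77 in C57BL/6. No array of either strain exceeded its array median, and 0 Balb/c and 1 C57BL/6 arrays exceeded the olfactory receptor median, so nearly all values stood below the middle of genes not known for a role in dendrites. The difference of 1.17 ± 0.46 missed the threshold (adjusted p = 0.053 as a gene value), and it passed without C57BL/6 200-1 (1.29, adjusted p = 0.023), without C57BL/6 200-2 (1.30, adjusted p = 0.025), without Balb/c 200-1 (1.53, adjusted p = 0.014) and with the pool size as a covariate (1.20, adjusted p = 0.038).

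Lhx6 varied more within strains than between them. Lhx6 1425094_a_at had 9.44, 7.18, 10.55, 7.88 and 10.38 in Balb/c (100-1, 100-2, 200-1, 400-1 and 400-2), against 6.39 (200-3) to 10.70 (200-1) with a median of 10.20 in C57BL/6. All 5 Balb/c values lay inside the C57BL/6 range, and the difference was -0.79 ± 0.58 (adjusted p = 0.31). Lhx6 1422262_a_at differed by 0.54 ± 0.48 (8.77 ± 1.09 in Balb/c and 8.23 ± 0.96 in C57BL/6, adjusted p = 0.40), so that the gene value differed by -0.12 ± 0.46 (adjusted p = 0.86). Both probe sets lay above the olfactory receptor median in all 19 arrays.

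Among the subtype genes, Pvalb, the marker of fast-spiking basket cells, was higher in Balb/c. It had 6.57 and 7.05 in the Balb/c pools of 100, 7.95 in the pool of 200, and 8.13 and 8.29 in the pools of 400, against 5.00 (400-4) to 7.86 (200-3) with a median of 6.24 in C57BL/6. 3 Balb/c arrays lay above every C57BL/6 array and the other 2 lay inside their range. The means of 7.60 ± 0.75 in Balb/c (SD, n = 5) and 6.18 ± 0.90 in C57BL/6 (SD, n = 14) differed by 1.42 ± 0.42 (SE, limma adjusted p = 0.013), or 1.21 relative to the median gene, and by 1.28 with the number format as a block (adjusted p = 0.18). Tested by probe set, Pvalb did not pass without Balb/c 400-1 (1.29, adjusted p = 0.051). Relative to the olfactory receptor median of the same array, Pvalb lay between -0.50 and 1.15 in Balb/c and between -1.18 and 1.75 in C57BL/6, and it was above the 95th percentile of those probe sets in 0 arrays. The olfactory receptor genes themselves were higher in Balb/c, with 20 of 38 called higher and 0 lower and a median difference of 0.77, and their part in the Pvalb difference was not tested.

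Calb2 was the steadiest of the 9 genes. It had 13.87, 13.17, 14.15, 12.92 and 14.08 in Balb/c (100-1, 100-2, 200-1, 400-1 and 400-2), against 13.36 to 14.20 with a median of 13.92 in C57BL/6, and it lay above the 95th percentile of the olfactory receptor probe sets in all 5 Balb/c and all 14 C57BL/6 arrays. Its 14 C57BL/6 values spanned 0.84, the smallest span of the 16 probe sets there. The strains differed by -0.22 ± 0.22 (SE, adjusted p = 0.45), and only Balb/c 100-2 and 400-1 fell below the C57BL/6 range.

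Reln had 2 probe sets of opposite sign. Reln 1449465_at had 8.72, 7.003, 10.80, 7.75 and 9.32 in Balb/c (100-1, 100-2, 200-1, 400-1 and 400-2), against 8.51 to 11.61 with a median of 9.76 in C57BL/6, a difference of -1.21 ± 0.53 (adjusted p = 0.083) that passed without Balb/c 200-1 (-1.73, adjusted p = 0.013). Reln 1458020_at had 8.32, 8.93, 9.32, 9.22 and 9.80 in Balb/c, against 7.68 to 9.06 with a median of 8.31 in C57BL/6, with 3 Balb/c arrays above every C57BL/6 array. That difference was 0.76 ± 0.27 (limma adjusted p = 0.034), and it did not pass without Balb/c 200-1 (0.71, adjusted p = 0.063), Balb/c 400-1 (0.74, adjusted p = 0.076) or Balb/c 400-2 (0.59, adjusted p = 0.12). The gene value of Reln differed by -0.22 ± 0.31 (adjusted p = 0.60).

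**Figure D3:**
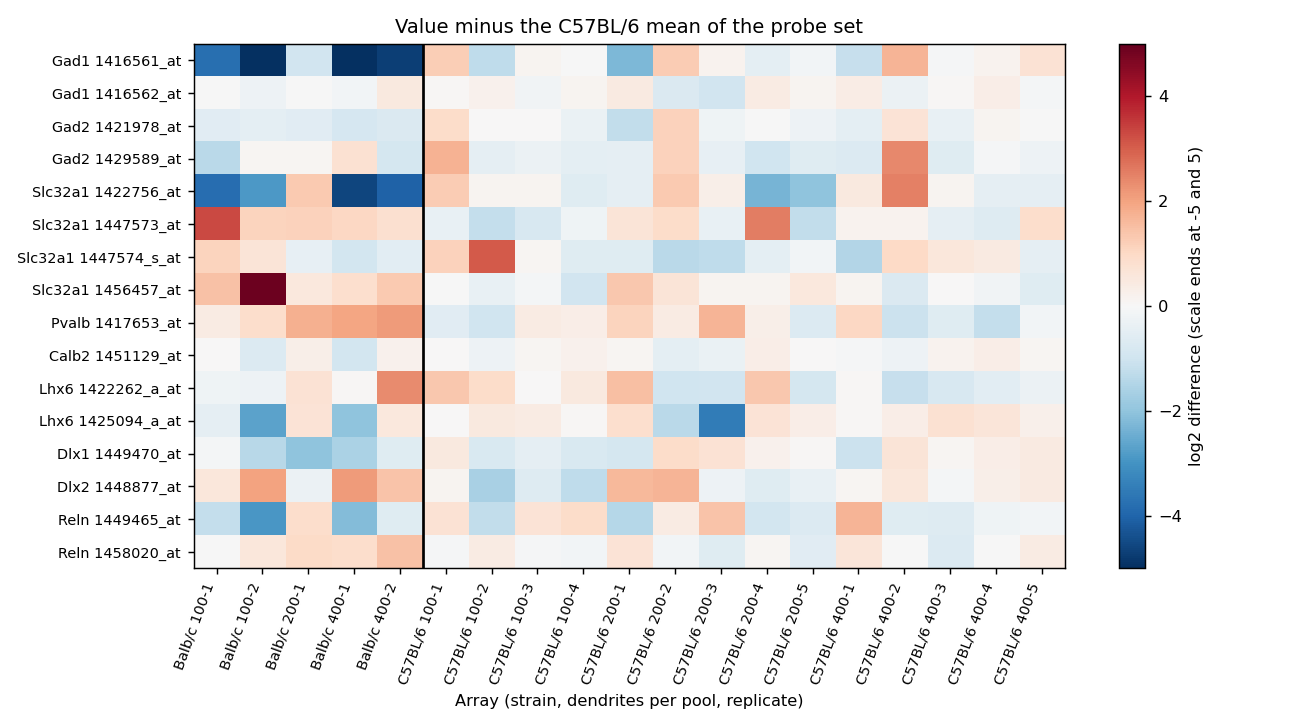
Value of each probe set (rows) in each of the 19 arrays (columns, 5 Balb/c arrays left of the black line and 14 C57BL/6 arrays right of it) minus the C57BL/6 mean of that probe set, on the log2 scale, with colours that end at -5 and 5. Gad1 1416561_at and Slc32a1 1422756_at are dark blue in 4 Balb/c arrays, and C57BL/6 100-1, 200-2 and 400-2 are red in Gad1 1416561_at, both Gad2 probe sets and Slc32a1 1422756_at.

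Within C57BL/6, both Gad2 probe sets, 1 of 2 for Gad1 and 1 of 4 for Slc32a1 were highest in the same 3 pools, C57BL/6 100-1, 200-2 and 400-2, 1 of each pool size. Gad2 1429589_at had 11.31, 10.71 and 11.96 there, against 8.58 to 9.51 in the other 11 C57BL/6 arrays. Gad2 1421978_at had 7.25, 7.49 and 7.02 there, against 5.12 to 6.49 in the other 11. Gad1 1416561_at had 11.94, 11.97 and 12.41 there, against 8.48 to 11.42, and Slc32a1 1422756_at ran from 11 to 12.26, against 7.42 to 10.24. In each of these 4 probe sets the 3 pools lay above all other C57BL/6 arrays, which held for 239 of 45037 probe sets (0.531%). The pools were singled out by their Gad2 values, so Gad2 meets this by choice, and nothing is read from the share. Dlx1 was also high there (8.05, 8.47 and 8.19) but overlapped the other 11 arrays (6.48 to 8.29). The other 12 probe sets of the 9 genes did not have these 3 pools as their highest, and Gad1 1416562_at had 10.56, 9.75 and 10.21 there, against 9.53 to 10.95 in the others. By gene value only Gad2 of the 9 had these pools highest, since Gad1 (10.86 to 11.31 there, against 9.72 to 10.92) and Slc32a1 (6.59 to 7.005 there, against 5.66 to 7.79) overlapped the other 11. The 95th percentile of the olfactory receptor probe sets was lower in these pools (8.31, 8.45 and 8.37) than in the other 11 (8.51 to 9.74), and the Actb 3′ minus 5′ difference was 4.49, 4.75 and 5.56 there, against 1.17 to 5.42. The part of either in the high values was not tested.

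**Figure D4:**
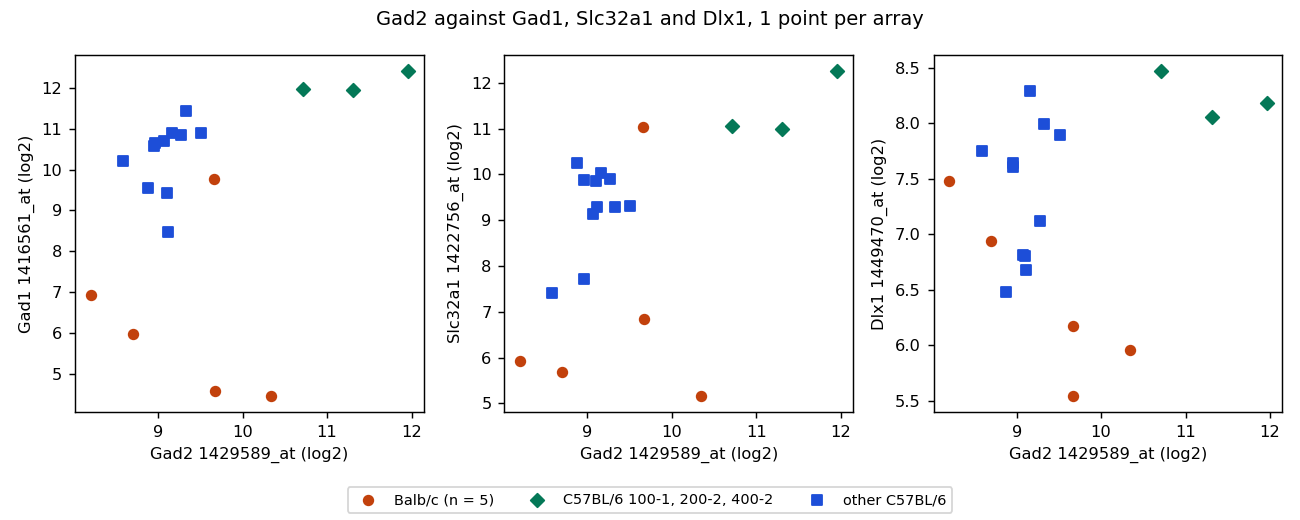
Gad2 1429589_at (log2, horizontal axis) against Gad1 1416561_at, Slc32a1 1422756_at and Dlx1 1449470_at (log2, vertical axes), 1 point per array, in Balb/c (circles), C57BL/6 100-1, 200-2 and 400-2 (diamonds) and the other 11 C57BL/6 arrays (squares). The 3 diamonds lie at a Gad2 of 10.71 to 11.96, apart from the squares at 8.58 to 9.51.

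Some neuropeptide genes were high in the same pools. Npy, a peptide of dendrite-targeting and neurogliaform interneurons, had 9.20, 9.35 and 9.98 in C57BL/6 100-1, 200-2 and 400-2 and 6.61 to 7.82 in the other C57BL/6 arrays. Cck, a peptide of a class of basket cells that pyramidal neurons also make, had 9.54, 10.14 and 10.51 there and 5.82 to 7.63 in the others. The peptide gene Sst overlapped, at 8.225 to 10.06 there and 6.62 to 9.06 in the others. Vip did so too, at 6.15 to 6.75 there and 5.85 to 9.29 in the others. By gene value, Cck, Crh, Gad2, Npy and Penk were the genes of the marker lists with these 3 arrays as their highest. The share over all genes was not counted and the pools were chosen by Gad2, so nothing is read from these names. Npy (r = 0.95), Rab3c (r = 0.91) and Cck (r = 0.90) were the genes with a pattern most like Gad2 over the 14 C57BL/6 arrays after the array median was subtracted, a description that rests on those 3 arrays. Markers of excitatory cells, or shared with them, had the same pools highest in 1 of 2 probe sets of Slc17a6 and 1 of 4 of Calb1. Slc17a6 1418610_at, of a vesicular glutamate transporter gene, had 8.91, 8.27 and 8.75 there, against 5.46 to 7.90 in the other 11, while Slc17a6 1428379_at had 5.54, 6.75 and 5.69, against 4.58 to 6.98. Calb1 1417504_at, of the calbindin gene of some interneurons and some excitatory cells, had 9.38, 10.65 and 11.02 there, against 6.33 to 8.80, and the other 3 Calb1 probe sets overlapped.

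As list means over genes, the interneuron subtype list averaged 7.66, 7.82 and 7.93 in these 3 arrays, against 7.06 to 7.55 in the other 11. Of its 29 measured genes, only Cck, Crh, Npy and Penk had these pools as their highest by gene value. The list mean without them was not computed. The other lists of inhibitory genes overlapped, with 7.70, 7.59 and 7.95 there against 7.17 to 7.97 for GABA synthesis, packaging, uptake and breakdown, and 6.56, 6.39 and 6.37 there against 5.99 to 6.71 for the interneuron transcription factors. The pyramidal list overlapped too, at 7.53, 7.69 and 7.50 there against 7.29 to 7.94. The microglia, endothelial and oligodendrocyte lists did not have these 3 pools as their highest, and the astrocyte list averaged 6.53, 6.47 and 6.52 there, against 6.57 to 7.37 in the other 11. The part of other cells in the high values of these pools was not tested.

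Because Gad2 fell into 2 separate clusters of C57BL/6 arrays, its correlations are given over the other 11 arrays. Over all 14 arrays, 1 of 36 pairs of gene values passed (Gad1 with Gad2, Pearson r, permutation p adjusted over the 36 pairs), and without the 3 high pools 0 of 36 passed. In those 11 arrays, Gad1 and Gad2 had a Pearson r of 0.65 and a Spearman rho of 0.55 (permutation p = 0.030, 0.43 adjusted), so the pair passed only with the 3 pools included. Among 120 pairs of probe sets 7 passed by Pearson r over 14 arrays and 0 over 11. The share over all pairs of genes or of probe sets was not counted, so nothing is read from these counts. Gad1 1416561_at and Dlx1 1449470_at had an r of 0.81 and a rho of 0.87 over 14 arrays (permutation p adjusted over 120 pairs, 0.017 and 0.022). Their r was 0.78 without the 2 arrays farthest from the median of Gad1 and 0.57 in the 10 short-format arrays. Over the 11 arrays it was 0.72 (permutation p = 0.011, 0.33 adjusted). Gad1 1416562_at went the other way with Dlx1, with an r of -0.65 and a rho of -0.72 (adjusted permutation p of 0.12 and 0.072). By gene value, Gad1 with Dlx1 did not pass (r = 0.66, adjusted permutation p = 0.16). The largest r of the 7 was that of Gad1 1416562_at with Lhx6 1425094_a_at, 0.85 (adjusted permutation p = 0.017), or 0.36 without the 2 farthest arrays. The only negative pair among these 7 was Slc32a1 1447574_s_at with Pvalb, with an r of -0.76 and a rho of -0.81 over 14 arrays (adjusted permutation p of 0.024 and 0.034), an r of -0.83 without the 2 farthest arrays, an r of -0.82 in the 10 short-format arrays and an r of -0.74 over 11 (permutation p = 0.0037, 0.33 adjusted). By Spearman rho, 2 more negative pairs passed over 14 arrays, the 2 probe sets of Gad1 given above and Lhx6 1425094_a_at with Reln 1449465_at, whose rho was -0.79 (permutation p adjusted over 120 pairs, 0.038) and whose r was -0.59 (adjusted 0.14), or -0.78 without the 2 arrays farthest from the median of Lhx6.

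The nearest patterns of the other genes, over the 14 C57BL/6 arrays with the array median subtracted, were those of Dmac1, Zfp804a and Mrfap1 for Gad1 (r of 0.92 to 0.95), of Itpk1, E030024N20Rik and Prom2 for Slc32a1 (0.84 to 0.89), of Nuak2, Pfkl and Ciz1 for Pvalb (0.91 to 0.94) and of Hnrnpl, Zfp708 and Cggbp1 for Calb2 (0.87 to 0.89). For Lhx6 they were Agk, Fgfbp1 and Cyp4f14 (0.91 to 0.95), for Dlx1 Vps35, Celf4 and Rab12 (0.92 to 0.94), for Dlx2 Ubfd1, Tunar and Golm2 (0.87 to 0.88) and for Reln Cnppd1, Casc3 and Tmcc2 (0.90 to 0.91). Apart from Npy and Cck for Gad2, none of these is on the marker lists. No member was among the 3 nearest genes of another.

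The promoters of Gad1, Gad2 and Slc32a1, of which at least 1 probe set each was high in the 3 C57BL/6 pools, and of Dlx1, which varied with Gad1 1416561_at, are shown to set their sequences side by side, as the 250 bases upstream of the RefSeq start (assembly GRCm38.p6), 5′ to 3′ on the strand of the gene, with the homeodomain core TAAT or its reverse complement ATTA in capitals.
Gad1 (chr2:70561879-70562128, + strand): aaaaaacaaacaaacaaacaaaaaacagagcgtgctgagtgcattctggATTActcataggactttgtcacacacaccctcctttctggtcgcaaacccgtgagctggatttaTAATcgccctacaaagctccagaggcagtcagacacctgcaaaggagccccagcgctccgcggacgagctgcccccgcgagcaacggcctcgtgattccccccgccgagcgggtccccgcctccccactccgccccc
Gad2 (chr2:22622077-22622326, + strand): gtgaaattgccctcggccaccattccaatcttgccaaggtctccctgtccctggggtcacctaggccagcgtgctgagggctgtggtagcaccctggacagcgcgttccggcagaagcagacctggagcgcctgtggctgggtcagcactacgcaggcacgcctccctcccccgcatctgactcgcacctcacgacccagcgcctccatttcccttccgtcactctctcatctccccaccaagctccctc
Slc32a1 (chr2:158610508-158610757, + strand): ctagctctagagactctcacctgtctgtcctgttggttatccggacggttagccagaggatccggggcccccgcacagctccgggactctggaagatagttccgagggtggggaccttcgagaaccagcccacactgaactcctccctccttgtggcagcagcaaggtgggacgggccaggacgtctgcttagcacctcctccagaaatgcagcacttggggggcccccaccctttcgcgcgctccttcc
Dlx1 (chr2:71529195-71529444, + strand): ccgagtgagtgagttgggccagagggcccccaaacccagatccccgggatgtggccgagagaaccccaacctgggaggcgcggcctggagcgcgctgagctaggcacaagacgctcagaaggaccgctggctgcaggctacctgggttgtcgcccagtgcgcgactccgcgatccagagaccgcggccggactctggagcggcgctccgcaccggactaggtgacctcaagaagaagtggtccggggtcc

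Gad1 held 2 such cores, 1 in each orientation, while the promoters of Gad2, Slc32a1 and Dlx1 held 0. The core was present in 54.9% of 32851 promoters of the same length, so its presence in Gad1 is common. The longer palindrome TAATTA, which overlaps both cores, was in 0 of the 11 promoter sequences listed for 8 of the 9 genes and in 4.84% of all promoters. A match says that the letters are present and nothing of binding.

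None of the 9 genes passed the test for the number of dendrites in a pool. The slope per doubling of dendrites, with strain as a covariate, was called for 0 of 9 genes and 0 of 16 probe sets (limma), against 0% of 18193 genes and 0% of 45037 probe sets, although 850 genes and 2197 probe sets had an unadjusted p under 0.05. By gene value, the largest slopes were those of Dlx2, 0.45 ± 0.23 per doubling (SE, unadjusted p = 0.064, adjusted p = 0.96), and of Slc32a1, -0.29 ± 0.15 (unadjusted p = 0.066, adjusted p = 0.96), and by probe set the largest was that of Slc32a1 1447574_s_at, -0.53 ± 0.27 (adjusted p = 0.95). Dlx2 averaged 3.90 ± 0.77, 5.19 ± 1.14 and 5.03 ± 0.27 in C57BL/6 pools of 100, 200 and 400 dendrites (SD, n = 4, 5 and 5). Gad1 averaged 10.64 ± 0.48, 10.39 ± 0.44 and 10.78 ± 0.41 in those pools, so that its level differed by less than the spread between replicates.

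Within C57BL/6, pools of 400 against pools of 100 differed by 1.13 ± 0.49 in Dlx2 (adjusted p = 0.86), -0.53 ± 0.52 in Lhx6 (adjusted p = 0.93), 0.44 ± 0.41 in Dlx1 (adjusted p = 0.93) and 0.14 ± 0.31 in Gad1 (adjusted p = 0.98). No gene passed the test of a difference in slope between the strains (an interaction term in limma), with 0 of 18193 called and 690 at an unadjusted p under 0.05. By gene value, the largest interaction among the 9 genes was that of Pvalb, 0.83 ± 0.46 per doubling (adjusted p = 0.9999). There Balb/c had 6.57 and 7.05 in pools of 100, 7.95 in the pool of 200 and 8.13 and 8.29 in pools of 400. C57BL/6 averaged 5.97 ± 0.69, 6.73 ± 0.90 and 5.78 ± 0.90. By probe set, the largest was that of Lhx6 1422262_a_at, 1.34 ± 0.49 per doubling, which did not pass either. With 5 Balb/c arrays, 1 of them at 200 dendrites, such slopes rest on few pools.

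**Figure D5:**
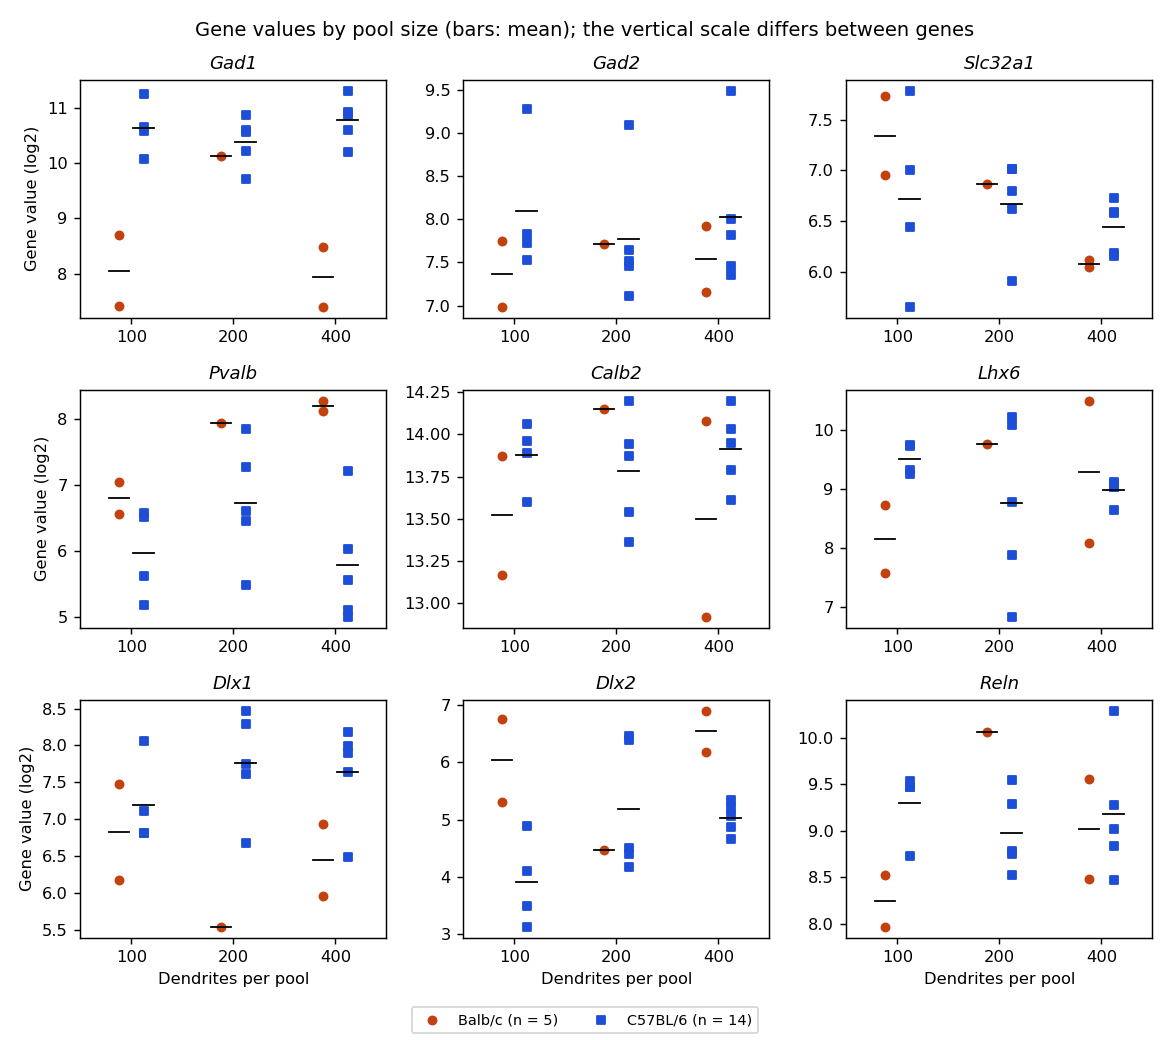
Gene values of the 9 markers (log2, vertical axis, whose scale differs between genes) by dendrites per pool (horizontal axis) in Balb/c (circles) and C57BL/6 (squares), 1 point per array, with bars at the mean. Gad1 in Balb/c is low at 100 and 400 dendrites and 10.12 in the single pool of 200, and Dlx2 in C57BL/6 averages 3.90 at 100 dendrites and 5.03 at 400.

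The order of the 6 conditions by gene value put 1 strain above the other for Gad1, Gad2, Dlx1 and Pvalb, of which Gad2 did not pass between the strains. How many of all genes have such an order was not counted, and 32.5% of all genes passed between the strains. Nothing is therefore read from the number of members with it. For Gad1 it ran C57BL/6 400, C57BL/6 100, C57BL/6 200, Balb/c 200, Balb/c 100 and Balb/c 400, and of these neighbours only Balb/c 200 and Balb/c 100 did not overlap. For Pvalb it ran Balb/c 400, Balb/c 200, Balb/c 100, C57BL/6 200, C57BL/6 100 and C57BL/6 400, and the first 3 did not overlap each other, with 1 or 2 arrays in each. Gad2 had all C57BL/6 conditions above all Balb/c conditions with overlap between all neighbours, and Dlx1 did so with no overlap only between Balb/c 400 and Balb/c 200. Calb2 ran from 14.15 in Balb/c 200 to 13.50 ± 0.82 in Balb/c 400, and no neighbours in its order were free of overlap. Lhx6 ran from 9.75 in Balb/c 200 to 8.15 ± 0.82 in Balb/c 100, and Reln from 10.06 in Balb/c 200 to 8.25 ± 0.39 in Balb/c 100. Slc32a1 ran from 7.34 ± 0.55 in Balb/c 100 to 6.08 ± 0.044 in Balb/c 400, and Dlx2 from 6.55 ± 0.51 in Balb/c 400 to 3.90 ± 0.77 in C57BL/6 100.

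Around the 9 genes, most measured members of each pathway list did not pass between the strains. Of all genes, 11.4% passed lower and 21.1% higher in Balb/c, and the counts below stand beside these shares. Of 9 measured genes of GABA synthesis, packaging, uptake and breakdown, 2 were lower in Balb/c, 1 was higher and 6 did not pass, with a median difference of -0.027 against 0.22 for all genes. Besides Gad1, the GABA transporter gene Slc6a11 was lower (5.91 ± 0.65 in Balb/c and 6.76 ± 0.52 in C57BL/6, adjusted p = 0.028) and Slc6a12, which encodes a betaine and GABA transporter, was higher (9.08 ± 1.24 in Balb/c and 7.72 ± 0.98 in C57BL/6, adjusted p = 0.039). Of 16 interneuron transcription factors, 1 was lower and 3 were higher, with a median difference of 0.28. The 3 higher were Gsx2 (1.68 ± 0.44, adjusted p = 0.0068), Dlx5 (0.99 ± 0.34, adjusted p = 0.031) and Prox1 (1.27 ± 0.47, adjusted p = 0.042). Gsx2 is a homeobox factor of the lateral eminence. Dlx5 averaged 6.41 in Balb/c and 5.42 in C57BL/6, below the array medians of each strain.

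Of 29 interneuron subtype markers, 3 were lower in Balb/c, 4 were higher and 22 did not pass, with a median difference of -0.12. The neuropeptide gene Sst, the usual partner class of Pvalb among Lhx6-derived cells, was lower (6.82 ± 0.32 in Balb/c and 8.12 ± 0.97 in C57BL/6, a difference of -1.31 ± 0.42, limma adjusted p = 0.020), as were the cannabinoid receptor gene Cnr1 (-0.79 ± 0.20, adjusted p = 0.0060) and Nxph1 (-1.03 ± 0.31, adjusted p = 0.016). The Balb/c values of Sst, 6.32 to 7.18, lay around the Balb/c array medians of 6.77 to 6.95. Gabrd, the delta subunit of the GABA-A receptor, was higher (0.83 ± 0.21, adjusted p = 0.0055). Every Gabrd value, 5.62 to 6.51 in Balb/c and 4.84 to 5.71 in C57BL/6, lay below the array medians and the olfactory receptor medians of its strain. The olfactory receptor genes had a median difference of 0.77, and their part in the Gabrd difference was not tested. Pvalb, Sncg (1.19 ± 0.38, adjusted p = 0.020) and Kcns3 (0.60 ± 0.22, adjusted p = 0.039) were also higher. Of 11 genes of the reelin pathway, 3 were lower and 0 higher, with a median of 0.19. These were both reelin receptor genes, Vldlr (6.93 ± 0.58 in Balb/c and 8.51 ± 0.65 in C57BL/6, adjusted p = 0.0013) and Lrp8 (6.02 ± 0.59 in Balb/c and 7.27 ± 0.84 in C57BL/6, adjusted p = 0.017), and the kinase gene Fyn (7.40 ± 0.40 in Balb/c and 8.49 ± 0.50 in C57BL/6, adjusted p = 0.0037). Of 9 Cajal-Retzius markers, 1 was lower (Tbr1, -1.35, adjusted p = 0.012). The 2 higher were Ebf3 (1.01, adjusted p = 0.015) and Lhx5 (0.86, adjusted p = 0.022). Lhx5, at 3.95 to 5.96 in Balb/c and 3.48 to 4.98 in C57BL/6, lay below every array median.

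Markers of other cells were measured beside these. Of 18 pyramidal markers, 4 were lower in Balb/c and 4 higher. Crym (5.50 ± 1.60 in Balb/c and 9.49 ± 1.25 in C57BL/6, a difference of -3.98, adjusted p = 0.00020), Neurod6 (-2.23, adjusted p = 0.015), Tbr1 (-1.35, adjusted p = 0.012) and Neurod1 (-1.13, adjusted p = 0.019) were lower. Camk2a (0.69, adjusted p = 0.017), Spink8 (1.13, adjusted p = 0.0082), Pou3f1 (0.67, adjusted p = 0.038) and Nrn1 (0.76, adjusted p = 0.032) were higher. Spink8 averaged 6.56 in Balb/c and 5.43 in C57BL/6, below the array medians of each strain. Prox1, Sst, Vip, Nxph1, Sncg, Kcns3, Neurod1, Neurod6, Camk2a, Pou3f1, Nrn1, Slc17a6, Slc17a7, Nrgn, Neurod2, Calb1, Crh and Penk were named after their values were seen. Slc17a7, the vesicular glutamate transporter gene that defines most excitatory hippocampal cells, averaged 6.74 ± 0.70 in Balb/c and 6.36 ± 0.52 in C57BL/6 (adjusted p = 0.33). Nrgn, a postsynaptic protein gene of excitatory neurons, averaged 13.32 ± 0.21 in Balb/c and 13.03 ± 0.23 in C57BL/6 (adjusted p = 0.23), and Neurod2, a factor of their differentiation, averaged 9.31 ± 0.64 in Balb/c and 9.23 ± 0.54 in C57BL/6 (adjusted p = 0.85). Neurod6 ran from 4.39 to 9.89 in Balb/c and from 7.01 to 10.51 in C57BL/6. The mean of the astrocyte list ran from 6.25 to 7.53 in Balb/c and from 6.47 to 7.37 in C57BL/6, with 2 of 12 genes lower (Gja1 and Aldoc). The microglia list ran from 7.25 to 7.55 in Balb/c and from 6.50 to 7.50 in C57BL/6, with 3 of 12 higher. The oligodendrocyte list ran from 6.55 to 6.97 in Balb/c and from 6.27 to 6.70 in C57BL/6, with 4 of 11 higher, and the endothelial and mural list from 6.71 to 7.53 in Balb/c and from 6.68 to 7.41 in C57BL/6, with 2 of 10 higher. No listed marker was at 0, as log2 array values have no zero, and the part of these cells in the differences of the 9 genes was not tested.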

How the data were processed

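RNA of pooled dendrites, amplified in 2 rounds and a final labelling round per the study's methods, had been hybridised to Affymetrix mouse expression arrays, 1 pool per array. The authors deposited log2 values made with RMA 2.0, with 45101 probe sets per array, of which 64 control probe sets were left out here. The deposited values had array medians of 6.62 to 6.95, so the median centring and range scaling named in the methods were not in them. Arrays carry no read depth, and their number limits the precision. Genes were named from the platform annotation, in which 34945 probe sets had 1 symbol, 932 several and 9160 none, and the gene value is the median of a gene's probe sets. The sources used here do not say what the number format of the columns stands for.

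Strains were compared with limma 3.58.1 in R 4.3.3 over 18193 gene values and over 45037 probe sets, with Benjamini-Hochberg adjustment at 0.05. The slope on log2 dendrites per pool had strain as a covariate. Pairs were correlated over the 14 C57BL/6 arrays with 100000 permutations (two-sided, numpy 2.4.6, scipy 1.17.1). The scripts were tested on simulated data. Alternatives were other scalings, other summaries and filters, blocks on replicate number and number format, single pool sizes, and leaving out arrays. The members and the gene lists were chosen with earlier results of these data known. Named list genes were by rule up to 3 of each list with the smallest p, and genes outside the rule are said to be so. Promoters came from RefSeq (GRCm38.p6), matched by symbol for 8 of 9 genes, and Calb2 was the other.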

Additional observations from a re-analysis of the deposited data

Results flagged for a closer look

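Dixon's test, which flags about 1 in 20 groups by chance, was run on 84 groups of 4 or 5 arrays, and 13 had an array far from the others. The groups overlap, since gene values are medians of probe sets that were also tested. The count is therefore not read as an excess. Gad2 1429589_at stood apart in 1 array of each C57BL/6 pool size, at 11.31 in 100-1 (next value 9.27), 10.71 in 200-2 (next 9.16) and 11.96 in 400-2 (next 9.51). The Gad2 gene value stood apart in 2 of the same arrays, at 9.28 in 100-1 (next 7.83) and 9.10 in 200-2 (next 7.65). These are the 3 pools in which Gad1 1416561_at, Slc32a1 1422756_at, Npy and Cck were also highest among C57BL/6.

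In Balb/c, Slc32a1 1422756_at was 11.04 in 200-1 (next 6.85), Slc32a1 1447573_at was 8.85 in 100-1 (next 6.71) and Slc32a1 1456457_at was 11.36 in 100-2 (next 7.93), a different array for each of these 3 probe sets, while none stood apart in Slc32a1 1447574_s_at. In C57BL/6, Reln 1449465_at was lowest at 8.68 in 100-2 (next 10.63) and highest at 11.61 in 400-1 (next 9.80), and Reln 1458020_at was highest at 8.76 in 100-2 (next 8.30). The Reln gene value was lowest at 8.72 in C57BL/6 100-2 (next 9.46), and the Lhx6 gene value was lowest at 8.63 in C57BL/6 400-2 (next 9.02).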

How the results depend on the processing

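By gene value, 3 of 9 members and 5910 genes passed between the strains, and 7 of 16 probe sets. The number format block left 1 member, 350 genes and 1 probe set, the long-format arrays alone 0, 0 and 0 (5819 of all probe sets had an unadjusted p under 0.05, limma), pools of 100 alone 1 member and 2085 genes, and pools of 400 alone 3093 genes. Leaving out 1 array gave 2 to 4 members, 4 to 9 probe sets and 4093 to 6694 genes, with the fewest members (Gad1 and Pvalb) without Balb/c 400-1. Deviations from the group mean correlated at -0.32 to 0.52 in 27 same-number pairs of arrays (5 over 0.1). In 98 different-number pairs they correlated at -0.38 to 0.32 (19 over 0.1), and whether replicate numbers pair the arrays was not tested. The replicate block gave 1 member, 2 probe sets and 1343 genes. Within C57BL/6, all arrays numbered 1 were long-format and all numbered 3 to 5 short-format, so that block overlaps with number format. In the slope, C57BL/6 pools of 200 against 100 gave 2 genes. Of the pairs of gene values, 1 passed over 14 C57BL/6 arrays and 0 without the 3 high in Gad2.

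The Slc32a1 gene value (0.14) turned to -0.0064 after quantile normalisation, -0.042 after range scaling, -0.039 after median subtraction, -2.81 with the brightest probe set (adjusted p = 0.0072), -0.15 with the replicate block, -0.25 with the format block and within long format, and -0.36 in pools of 400. Gad1 was 0.013 with its brightest probe set, and Lhx6 0.31 in pools of 400. By probe set, Gad1 1416562_at was -0.27 with the format block and within long format and -0.027 with the replicate block, and Lhx6 1422262_a_at was -0.41 with the format block and within long format. Leaving out 1 array gave -0.10 to 0.077 for Gad1 1416562_at, -0.51 to 0.028 for Gad2 1429589_at, -0.30 to 0.22 for Slc32a1 1447574_s_at, and, by gene value, -0.51 to 0.22 for Lhx6, -0.51 to 0.014 for Reln and -0.11 to 0.31 for Slc32a1. The cause of these changes was not tested.

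Slopes near 0 changed sign. Quantile normalisation gave -0.061 for Calb2 and -0.011 for Lhx6, and range scaling -0.037 for Calb2. C57BL/6 alone gave -0.25 for Lhx6, -0.021 for Gad2, -0.13 for Pvalb and -0.048 for Reln. C57BL/6 pools of 400 against 100 gave -0.53 for Lhx6, -0.066 for Gad2, -0.19 for Pvalb and -0.12 for Reln, and pools of 200 against 100 -0.095 for Calb2, -0.76 for Lhx6, -0.32 for Gad2, -0.32 for Reln and -0.25 for Gad1. Leaving out 1 array gave -0.034 to 0.092 for Calb2, -0.065 to 0.15 for Gad1, -0.12 to 0.14 for Gad2, -0.16 to 0.095 for Lhx6 and -0.0053 to 0.15 for Reln.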
